A study of Mus musculus with 9 samples.

Results

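The genes described here encode the contractile machinery by which smooth muscle cells and myofibroblasts are recognised. Their 10 members are named by symbol in a rule that uses no measured value, although the list was drawn up with earlier results of these data known. They are Acta2, Actg2, Tagln, Cnn1, Cnn2, Myl9, Tpm1, Tpm2, Myh11 and Des. All of them were found among the 40548 genes of the day 0 and day 7 tables and among the 40526 genes that had values in all 9 libraries. The libraries were made from total RNA of calvarial osteoblast cells of C57BL/6 mice (C57BL/6J in the study's methods), for which the sample records give postnatal day 2-3. The sample records name no mutation or transgene for any group. Day 0 cells were grown to confluence and not differentiated, whereas day 4 and day 7 cells were kept in mineralization medium, which adds ascorbic acid with β-glycerol phosphate, and each stage had 3 libraries. Such cultures are released from the skull by enzymes and hold several cell types. The sources do not say whether the libraries of a stage came from separate pups, so p-values refer to libraries and not to pups. Collagenase was used to collect mineralized cells but not day 0 cells, so this step cannot be told apart from the stage.

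Contraction in these cells rests on actin filaments that slide against myosin. Smooth muscle actins build the filaments, tropomyosins lie along them, calponins and transgelin bind them, and a myosin heavy chain pulls on them under the control of its regulatory light chain. Most of these genes have a sister gene that many other cells use. Some of the smooth muscle forms, Acta2 among them, are added when fibroblasts take up tension and become myofibroblasts. Serum response factor (SRF) with its partners of the myocardin family binds a short sequence, the CArG box, near the start of many of them.

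CArG boxes were searched for because they are the known common element of these promoters. The box was spelled as CC, then 6 letters that are A or T, then GG, which reads the same way on both strands. A looser form with 1 C or G among the 6 letters was searched apart from it, so the forms do not overlap. RefSeq promoters on GRCm38.p6, from 250 bases before to 50 bases after the start, were in hand for 7 of the 10 members (Acta2, Cnn1, Cnn2, Myl9, Tpm1, Tpm2 and Des). The box was found in 2 of the 7, Cnn2 and Myl9, and in 1.63% of the 32851 promoters in the table. The looser form was found in Acta2, which held 2, and in Myl9, and in 8.50% of all promoters. The stretches of 30 bases around these boxes are shown 5′ to 3′ on the strand of the gene, with the box in capitals. They lie at chr19:34255438-34255467 and chr19:34255388-34255417 (minus strand, Acta2), chr10:79988534-79988563 (plus strand, Cnn2), and chr2:156775293-156775322 and chr2:156775355-156775384 (plus strand, Myl9).
Acta2, looser box that begins at base -84: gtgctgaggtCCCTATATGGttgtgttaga
Acta2, looser box that begins at base -34: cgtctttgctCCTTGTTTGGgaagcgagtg
Cnn2, box that begins at base -56: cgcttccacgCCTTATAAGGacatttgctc
Myl9, box that begins at base -161: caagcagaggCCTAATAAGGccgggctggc
Myl9, looser box that begins at base -99: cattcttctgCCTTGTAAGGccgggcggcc
Positions count back from the RefSeq start. In the GENCODE annotation the Acta2 gene starts further upstream, at base 34255590, so both of its boxes lie inside the annotated gene there. A match describes letters only. Cnn2 and Myl9, the genes with the box, were both above day 0 in every day 7 library, and Cnn1, Tpm2 and Des, with neither form in the window, were too. Acta2, with the looser form alone, was below day 0 in every day 7 library, and Tpm1, with neither form, overlapped.

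The whole series bears on these values in a few ways. Reads on genes numbered 7741204 to 14013219 at day 0, 32820610 to 37306090 at day 4 and 10675858 to 15622755 at day 7. One RNA gene, Gm42418, took 12.0% of the reads of day 0 replicate 3 and 8.12% of day 7 replicate 2, but 2.94% and 3.04% of the other day 0 libraries, and Plekhh2 took 7.95% of day 7 replicate 3. Such genes lower the CPM and RPKM of all others in a library. Scaling by median of ratios is insensitive to them. It moved the median log2 change over the genes tested, day 7 against day 0, from -0.11 to -0.01. This scaling brings the median near 0 by design, so the move does not measure the part of Gm42418 and Plekhh2. With library totals that left out both genes, the median was -0.12. Osteoblast markers had reads at every stage, although at day 0 Bglap had only 3, 5 and 3 reads and Dmp1 6, 5 and 6. At day 7, 8 of 9 markers were higher, led by Ibsp (bone sialoprotein), with a log2 fold change of 9.43. Endothelial markers summed to 0.571 to 2.68 CPM (counts per 1e6 reads on genes) over the 9 libraries, and Tie1 and Emcn were at 0 in all of them.

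Levels are given as RPKM, the reads on a gene scaled to the length of its model and to the library total, so that genes can be compared. Acta2, the smooth muscle α-actin that defines the myofibroblast, was the member with the highest level at each stage. Its rank among all genes, by reads, lay between 29 and 43 in the 9 libraries. The order of the members by mean RPKM was the same at each stage and ran from Acta2 through Tagln, Myl9, Cnn2, Tpm1, Tpm2, Actg2, Cnn1 and Myh11 to Des. Among neighbours in this order, the libraries of Myl9 and Cnn2 and those of Cnn2 and Tpm1 overlapped at day 0, and those of Tpm1 and Tpm2 overlapped at day 4. All neighbours were apart at day 7. The 10 genes together took 0.547% to 0.674% of the reads at day 0, 0.591% to 0.642% at day 4 and 0.636% to 0.641% at day 7, so their sum overlapped between stages while its parts changed.

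**Figure D1:**
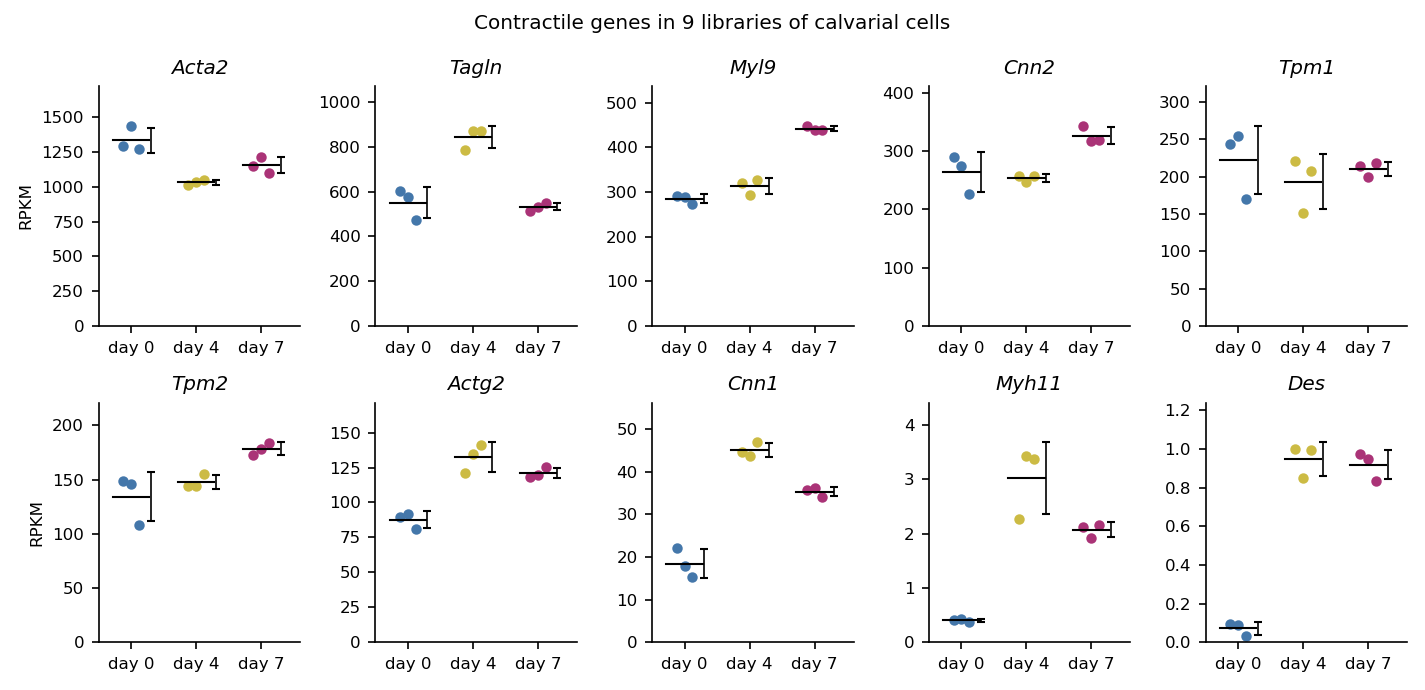
RPKM (y axis, linear from 0, a separate scale for each gene) of the 10 contractile genes in each library by day in mineralization medium (x axis). Points are libraries, lines are means and error bars are SD of 3 libraries. Myh11 and Des lie near the base of their panels at day 0, and Tagln is high at day 4 alone.

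Day 7 was compared with day 0 to ask which contractile genes changed as the cells differentiated. Of the 10 members, 6 were higher at day 7 (Actg2, Cnn1, Myl9, Tpm2, Myh11 and Des), none was lower, and 4 did not pass the test (Acta2, Tagln, Cnn2 and Tpm1). The test was limma on log2(CPM + 0.5), with p-values adjusted over 12712 genes by the Benjamini-Hochberg method and a threshold of 0.05. Of all genes tested 12.6% were higher (1602) and 18.6% lower (2369), whereas scaling by median of ratios gave 2843 higher genes, 7 members among them, and 2612 lower ones. Leaving out day 0 replicate 3 raised the number of lower genes to 4696, with 0 members among them. No member was lower at an unadjusted p under 0.05 in the limma fit, and edgeR and DESeq2 also called 0 members lower. The members had a median log2 fold change of 0.45, 0.56 above the median of all genes tested. In CPM, 7 members (these 6 and Cnn2) were above every day 0 library in every day 7 library, a pattern of 16.9% of all genes, and Acta2 was below, a pattern of 25.4% of all genes. An exact permutation test of 3 libraries against 3 cannot go below 0.1, and it gave 0.1 for each of these 8 genes.

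Myh11 and Des, the most specific smooth muscle and muscle genes of the group, had the lowest levels and the largest changes. Myh11, the smooth muscle myosin heavy chain, had RPKM of 0.419, 0.429 and 0.370 at day 0, 2.27, 3.43 and 3.38 at day 4, and 2.13, 1.92 and 2.17 at day 7. All libraries of day 4 and day 7 were above those of day 0, and those of day 7 lay below those of day 4. From day 0 to day 7 its log2 fold change was 2.16 (SE 0.205, adjusted p = 3.14e-12 in limma). Pooled over libraries, its reads rose from 92 at day 0 to 554 at day 7, a ratio of 5.08 after division by the reads of each stage (95% interval 4.07 to 6.41, counting error only).

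Des encodes desmin, the intermediate filament of muscle. It had RPKM of 0.0950, 0.0891 and 0.0344 at day 0, 0.998, 0.849 and 0.997 at day 4, and 0.975, 0.948 and 0.835 at day 7. Day 4 and day 7 overlapped, and both lay above day 0. The day 0 levels rest on 5, 4 and 1 reads, so the size of the change is uncertain. Its log2 fold change to day 7 was 2.36 (SE 0.271, adjusted p = 6.92e-10 in limma). The pooled ratio was 11.6 (95% interval 6.10 to 24.6) at day 7 and 12.0 (6.44 to 25.2) at day 4, each against 10 reads at day 0. Vim, the intermediate filament of mesenchymal cells, was far more abundant, and Des made up 0.0486% to 0.0564% of the RPKM of both genes at day 7. An antisense gene, Gm15179, overlaps the end of Des and was listed at 0 in all 9 libraries.

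Cnn1, the basic calponin of smooth muscle, rose as well. Its RPKM were 22.1, 17.9 and 15.3 at day 0, 44.6, 43.7 and 46.8 at day 4, and 35.7, 36.1 and 34.0 at day 7. The stages did not overlap, and day 4 was highest. From day 0 to day 7 the log2 fold change was 0.94 (SE 0.161, adjusted p = 5.72e-06 in limma). Cnn2, the calponin that many cells other than muscle use, had 290.3, 275 and 226 at day 0, 257, 246 and 258 at day 4, and 343, 316 and 318 at day 7. Its day 7 libraries were above all the others, but its log2 fold change of 0.31 (95% interval -0.01 to 0.64) did not pass the test (adjusted p = 0.141 in limma). It passed with median-of-ratios scaling, where the value was 0.42, and in 5 other alternatives. The ratio of Cnn1 to Cnn2 RPKM, which no scaling between libraries touches, was 0.0651 to 0.0762 at day 0, 0.174 to 0.182 at day 4 and 0.104 to 0.114 at day 7.

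The levels of the smooth muscle actins lay closer together at day 4 and day 7 than at day 0. Acta2 had RPKM of 1293, 1436 and 1270.0 at day 0, 1013, 1034 and 1051 at day 4, and 1151, 1213 and 1099 at day 7. The stages did not overlap, with day 0 highest and day 4 lowest. The log2 fold change from day 0 to day 7, -0.21 (95% interval -0.56 to 0.15), did not pass the test (adjusted p = 0.402 in limma). Actg2, the γ-actin of enteric smooth muscle, had 89.9, 92.1 and 80.8 at day 0, 121, 135 and 141 at day 4, and 118, 120 and 125 at day 7. Its day 0 libraries were the lowest, and day 4 and day 7 overlapped. The log2 fold change to day 7 was 0.47 (SE 0.151, adjusted p = 0.0145 in limma). It did not pass without day 7 replicate 2 or without day 7 replicate 3, where the adjusted p reached 0.106. The RPKM of Acta2 was 14.4 to 15.7 times that of Actg2 at day 0, 7.43 to 8.37 times at day 4 and 8.78 to 10.2 times at day 7.

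Because these actins are so alike, the start of their coding sequences is shown, with bases that differ, or that the partner lacks, in capitals. The first bases lie at position 34252553 of chromosome 19 (Acta2) and position 83527441 of chromosome 6 (Actg2) on GRCm38, both on the minus strand.
Acta2: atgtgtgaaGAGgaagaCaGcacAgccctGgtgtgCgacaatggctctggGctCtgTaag
Actg2: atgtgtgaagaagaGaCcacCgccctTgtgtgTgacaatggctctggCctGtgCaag
Over the whole coding sequence 84.2% of the aligned bases were identical, and the longest identical stretch had 29 bases. Of all stretches of 50 bases in the annotated transcripts of Actg2 none occurred in another gene, and for Acta2 0.326% did, so nearly all such stretches name 1 gene. Stretches were also unique in Cnn1, Cnn2, Myl9, Tpm1 and Tpm2, and 0.340% were shared in Myh11.

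Tagln, transgelin or SM22α, an actin-binding protein of smooth muscle, had its highest level at day 4, as did Cnn1 and Myh11. Its RPKM were 602, 576 and 472 at day 0, 786, 872 and 872 at day 4, and 515, 533 and 548 at day 7. Day 4 lay above both other stages, which overlapped. The log2 fold change from day 0 to day 7 was -0.04 (95% interval -0.37 to 0.29, adjusted p = 0.882 in limma), and its sign turned under 6 alternatives. The ratio of Tagln to Acta2 RPKM was 0.372 to 0.466 at day 0, 0.776 to 0.844 at day 4 and 0.440 to 0.499 at day 7. The sister gene Tagln2 had mean RPKM of 45.5, 80.3 and 52.7 at days 0, 4 and 7, with every day 4 library above both other stages. Of the 50-base stretches of Tagln transcripts 58.3% also occurred in transcripts of other genes on the opposite strand, mostly the antisense gene Gm48529. Whether counting used strand is not given in the sources used here, so the level of Tagln is uncertain.

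Myl9, the regulatory light chain of smooth muscle myosin, had its highest level at day 7. Its RPKM were 291, 289 and 273 at day 0, 320.2, 292 and 326 at day 4, and 448, 439.6 and 438 at day 7. The stages did not overlap, although day 4 and day 0 nearly met. From day 0 to day 7 the log2 fold change was 0.63 (SE 0.153, adjusted p = 0.0010 in limma). Relative to Acta2 its RPKM ratio was 0.201 to 0.225 at day 0, 0.283 to 0.316 at day 4 and 0.362 to 0.398 at day 7.

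The tropomyosins differed. Tpm2, the β-tropomyosin, had RPKM of 149, 146 and 108 at day 0, 144, 144 and 155 at day 4, and 173, 179 and 184 at day 7. Day 7 lay above all other libraries, and its log2 fold change from day 0 was 0.43 (SE 0.160, adjusted p = 0.0365 in limma). This call was lost in 6 of 19 alternatives, among them leaving out any 1 of the 3 day 7 libraries, with an adjusted p of up to 0.160. Tpm1, the α-tropomyosin, had 243, 254 and 171 at day 0, 221, 152 and 207 at day 4, and 214, 199.8 and 218 at day 7, so that all stages overlapped. Its log2 fold change was -0.06 (95% interval -0.41 to 0.29, adjusted p = 0.834 in limma), with a sign that turned under 7 alternatives. The ratio of Tpm1 to Tpm2 RPKM was 1.58 to 1.74 at day 0 and 1.12 to 1.24 at day 7, without overlap.

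**Figure D2:**
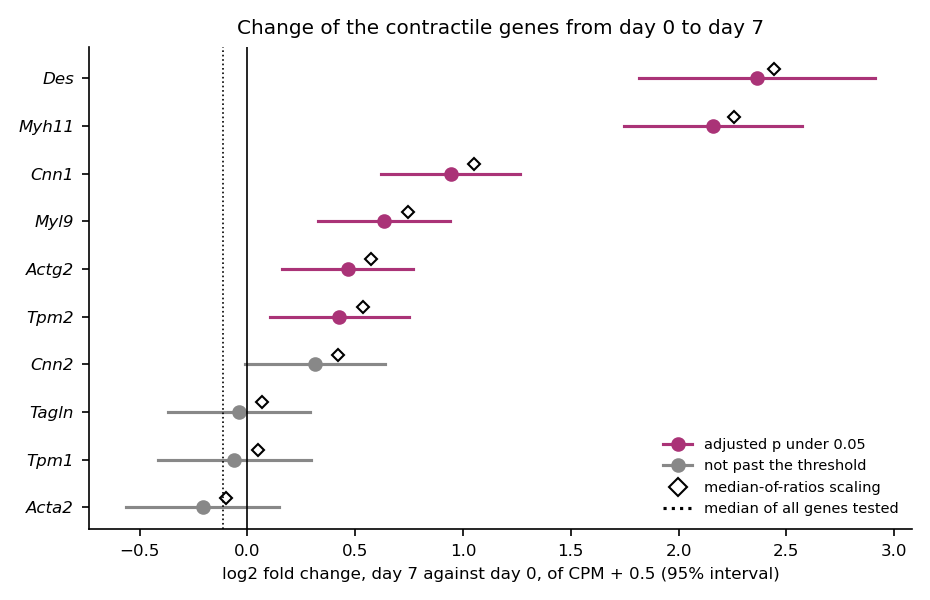
Log2 fold change of each contractile gene from day 0 to day 7 on the log2(CPM + 0.5) scale (x axis) with its 95% interval from limma. Filled points are the values as deposited, open diamonds those after median-of-ratios scaling, and the dotted line is the median of all 12712 genes. The values run from -0.21 for Acta2 to 2.36 for Des, and the intervals of Acta2, Tpm1, Tagln and Cnn2 cross 0.

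Day 4 lies in a table of its own and was sequenced more deeply, so day 4 was compared by direction and overlap, without a test. Relative to day 0, 6 members were above in every library (Actg2, Tagln, Cnn1, Myl9, Myh11 and Des), a pattern of 21.4% of 12800 genes. Acta2 was below in every library, a pattern of 22.0% of genes. Cnn2, Tpm1 and Tpm2 overlapped. Without day 0 replicate 3, the library rich in Gm42418, 3 members were below (Acta2, Cnn2 and Tpm1). With median-of-ratios scaling the 6 members above held Tpm2 in place of Myl9. Mean RPKM at day 4 was 13.0 times that of day 0 for Des, 7.46 times for Myh11, 2.44 times for Cnn1, 1.53 times for Tagln, 1.51 times for Actg2 and 1.10 times for Myl9, and 0.775 times for Acta2.

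From day 4 to day 7 the members split by direction. Acta2, Cnn2, Myl9 and Tpm2 were higher in every day 7 library, a pattern of 13.7% of 12782 genes, with mean RPKM of 1.12, 1.29, 1.41 and 1.21 times that of day 4. Tagln, Cnn1 and Myh11 were lower in every day 7 library, a pattern of 25.0% of genes, with 0.631, 0.783 and 0.685 times the day 4 level. Actg2, Tpm1 and Des overlapped. A peak at day 4 in these data, above both other stages without overlap, was therefore a pattern of Tagln, Cnn1 and Myh11, while Myl9 in the values as deposited stepped up at both intervals and Acta2 fell and then partly regained its level.

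Most members have a sister gene, and comparing the sisters inside a library needs no scaling between libraries. Among the calponins, the share of the family RPKM held by Cnn3, the acidic calponin, went from 44.3% to 48.1% at day 0 through 34.5% to 39.2% at day 4 to 26.7% to 28.3% at day 7. Cnn2 held 48.6% to 51.8% at day 0 and 64.8% to 65.9% at day 7. Among the regulatory light chains, Myl9 held 67.6% to 72.0% at day 0, 74.1% to 75.4% at day 4 and 79.5% to 81.6% at day 7. For Cnn3 and Myl9 no range overlapped that of another stage.

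Heavy chains were dominated by Myh9, the nonmuscle myosin IIA, at each stage. Myh10, the nonmuscle myosin IIB, fell from 17.6% to 20.3% of the family at day 0 to 11.5% to 11.9% at day 7. Myh11 held 0.198% to 0.214% at day 0, 1.58% to 2.37% at day 4 and 1.49% to 1.62% at day 7, so even its peak was a small part. Acta2 held 35.3% to 38.2% of the actin RPKM at day 0 and 31.6% to 34.1% at day 7, and Actb, the β-actin of all cells, held most of the rest. Actg1 held 0.139% to 0.177% at day 0 and 0.134% to 0.178% at day 7. Reads that align to more than 1 place were not counted, so Actg1 may be undercounted and the share of Acta2 is uncertain in its size. Tagln held over 90% of the transgelin RPKM in each library, with 90.6% the lowest value, but the level of Tagln is itself uncertain, as given above for its opposite-strand overlap. Shares that include Actg1, Cnn3, Tpm3, Tpm4, Myl12a, Myl12b and Actb are uncertain in their size, since 37.4%, 24.0%, 23.2%, 15.7%, 21.1%, 19.1% and 9.12% of their 50-base stretches occur in other genes, and reads were kept only where they aligned uniquely.

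**Figure D3:**
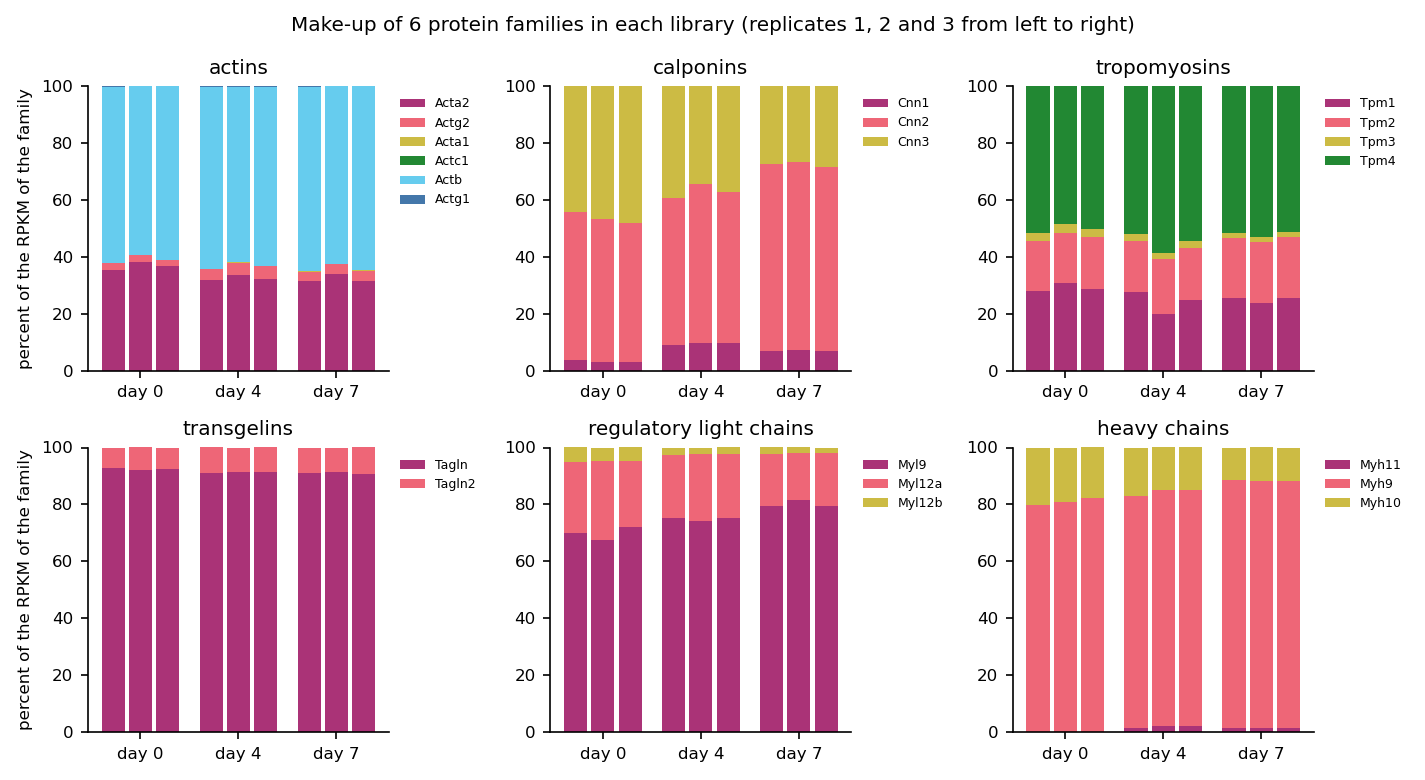
Percent of the summed RPKM of 6 protein families (y axis) held by each gene in each of the 9 libraries (bars, replicates 1 to 3 from left to right within each stage). The share of Cnn3 shrinks from day 0 to day 7 and that of Myl9 grows, while Tagln stays above 90% of the transgelins in each bar.

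In the fit over all genes, none of 14 sister and related genes outside the members was higher at day 7 and 5 were lower. Myh10 fell by 1.26 on the log2 scale, Myl12b by 0.85, Cnn3 by 0.83, Tpm3 by 0.49 and Myh9 by 0.46. Not past the threshold were Actb (0.05), Actg1 (-0.06), Tpm4 (0.22), Tagln2 (0.22), Myl12a (-0.07), Myl6 (0.11), Vim (0.08), Actn1 (-0.23) and Actn4 (0.02). The median of the 14 was -0.07, which is 0.05 above that of all genes. After median-of-ratios scaling 3 of the 14 were higher.

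Of 28 further genes of the smooth muscle contractile apparatus 26 were tested, and 10 were higher, 3 were lower and 13 did not pass. The largest rise was Itga7, an integrin subunit that binds laminin in muscle, with a log2 fold change of 2.74, and the largest fall was Pcp4l1, whose mean CPM was 13.2 at day 0 and 6.21 at day 7. Others that rose included Synm (synemin, a partner of desmin, 1.74), Ppp1r14a (an inhibitor of myosin phosphatase, from a mean CPM of 0.653 to 2.68), Ldb3 (1.39), Fhl1 (0.87), Cryab (0.84), Hspb1 (0.72), Smtn (smoothelin, 0.56) and Nexn (0.54). Cald1 (caldesmon) was lower by -0.43 and Sorbs3 by -0.49. Mylk, the kinase of the regulatory light chain, had 0.16 and did not pass. The median of the list was 0.24, which was 0.36 above that of all genes.

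Focal adhesions anchor the filaments, bundled in stress fibres, to the membrane. Of 18 genes listed for stress fibres and focal adhesions, 1 was higher (Fermt2, kindlin-2, 0.40), 7 were lower and 10 did not pass. The largest fall was in Zyx (zyxin, -0.91). The number higher was 2 with median of ratios, TMM or edgeR, 3 with DESeq2 and 5 with voomWithQualityWeights. Others that were lower included Diaph3 (-0.79), Tln1 (talin, -0.69), Flna (filamin A, -0.55), Parva (-0.47) and Lasp1 (-0.42). Vcl (vinculin) had 0.06 and Pxn (paxillin) -0.06, and neither passed. The list median was -0.22, which was 0.11 below that of all genes.

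Of 17 regulators of these genes 14 were tested. Klf4, a factor known to repress smooth muscle genes, was higher by 1.86, and Foxf1 (-1.09), Tead1 (-0.84), Rhob (-0.79) and Scx (-0.65) were lower. Srf itself had a log2 fold change of 0.04 (adjusted p = 0.867 in limma), and its coactivators Mkl1 (-0.38) and Mkl2 (-0.13) did not pass. Rhoa (-0.02), Rhoc (-0.05), Rock1 (-0.17), Rock2 (-0.01), Yap1 (-0.24) and Wwtr1 (0.11) did not pass either. Myocd, the myocardin gene that drives smooth muscle identity, had at most 35 reads in a library and was not tested, and Tcf21 was at 0 in all 9 libraries.

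**Figure D4:**
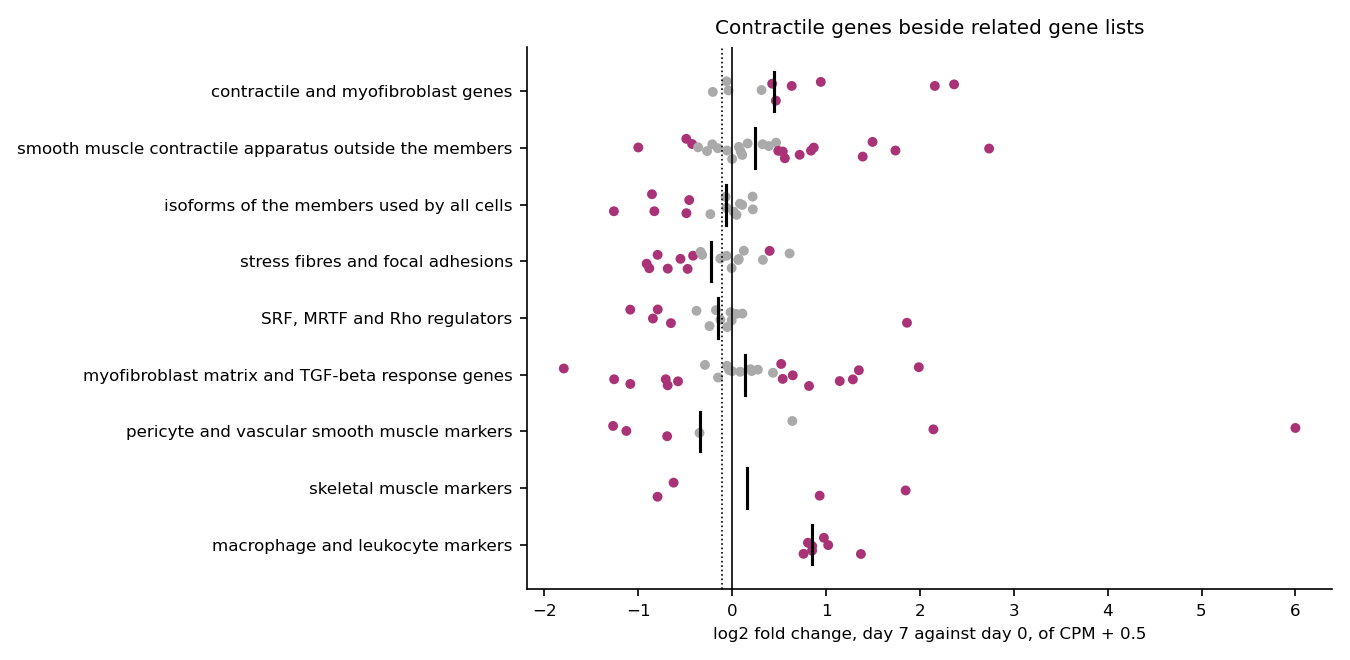
Log2 fold change from day 0 to day 7 on the log2(CPM + 0.5) scale (x axis) of each gene tested, by gene list (rows). Coloured points passed an adjusted p of 0.05, grey points did not, bars are list medians and the dotted line is the median of all genes. The 10 contractile genes have a median of 0.45, the stress fibre genes one of -0.22.

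Other cells in the cultures could carry some of these transcripts, and in bulk RNA fewer cells of a type cannot be told apart from less RNA per cell. Of 11 markers of pericytes and vascular smooth muscle 7 were tested, with 2 higher and 3 lower. Ndufa4l2 (6.00) and Cspg4 (NG2, 2.14) were higher, and Pdgfrb (-1.27), Rgs5 (-1.13) and Anpep (-0.69) were lower. The summed level of the 11 was 618 to 645 CPM at day 0, 1114 to 1419 at day 4 and 1193 to 1525 at day 7. Day 0 did not overlap the other stages. The rise of the sum lay in Cspg4, with mean CPM of 166 at day 0 and 742 at day 7, and Ndufa4l2, with 5.40 and 374. Pdgfrb went the other way, from 406 to 168, as did Rgs5 and Anpep. The part of the 11 markers in the changes of the contractile genes was not tested.

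Skeletal muscle lies close to the skull and shares Des. Of its 23 markers 4 were tested, with Chrna1 (1.85) and Acta1 (0.93) higher and Ttn (-0.80) and Tnnc1 (-0.62) lower. The CPM of day 0 and day 7 libraries overlapped for Acta1 and Ttn, but not for Chrna1 and Tnnc1. The summed level of the 23 markers was 10.2 to 16.1 CPM at day 0, 17.7 to 24.4 at day 4 and 15.4 to 19.9 at day 7. Myf5 and Tnnc2 were at 0 in all 9 libraries, and Myod1 had at most 1 read in a library. Of the 23 markers, 9 had at most 3 reads in any library. Others had reads in every library, among them Pax7 with 3 to 28 and Tnnt3 with 2 to 54. Macrophage and leukocyte markers were low but rose, with 7 of 7 tested higher, a median log2 fold change of 0.85 and a summed level of 60.8 to 105 CPM at day 0, 119 to 131 at day 4 and 116 to 154 at day 7. Genes of the immediate early response to stress, which tissue dissociation is known to evoke, summed to 218 to 254 CPM at day 0, 556 to 685 at day 4 and 263 to 369 at day 7. They were thus highest at day 4, the stage at which Tagln, Cnn1 and Myh11 were highest, and 4 of 11 were higher at day 7, led by Atf3 (1.21), while Egr1 (-0.83) was lower. The part of these markers and of the collection step in the contractile genes was not tested.

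Over the 9 libraries, the genes whose log2(RPKM + 0.1) followed that of Acta2 most closely among the 9100 genes whose mean CPM reached 10 were Lamp1 (Pearson's r 0.955), Plpp3 (0.948), Atp9a (0.948), Capn5 (0.945) and Hsp90ab1 (0.945). The points share library depth and composition and fall into 3 stages, so this is a description of a day 0 maximum and day 4 minimum. Lamp1, for example, had mean RPKM of 366, 255 and 307 at days 0, 4 and 7. The members were left out of this ranking, so none of them could appear, and none of these 5 genes is a contractile gene of the other lists above.

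The members lie on GRCm38 at chr19:34241090-34255590 (Acta2, minus strand), chr6:83512905-83536265 (Actg2, minus), chr9:45929619-45936058 (Tagln, minus), chr9:22099216-22109630 (Cnn1, plus), chr10:79988584-79996062 (Cnn2, plus), chr2:156775420-156781658 (Myl9, plus), chr9:67022590-67049406 (Tpm1, minus), chr4:43514711-43523765 (Tpm2, minus), chr16:14194535-14291372 (Myh11, minus) and chr1:75360329-75368579 (Des, plus). Tagln, Cnn1 and Tpm1 share chromosome 9 but not a neighbourhood. All 10 are annotated as protein coding.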

How the data were processed

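Total RNA of 9 libraries, 3 each at day 0, day 4 and day 7, was depleted of ribosomal RNA (Ribo-Zero Gold) and sequenced. The authors aligned reads with STAR 2.0.4b to the Ensembl annotation of GRCm38, counted uniquely aligned, unambiguous reads with featureCounts (version 1.45 in the submitters' processing notes) and deposited CPM and RPKM values. The authors normalized CPM to the reads on genes of each library, and the RPKM they deposited also divide by gene length. Day 0 and day 7 share tables, whereas day 4 has its own. Repeated gene lines (276 and 273) were identical and used once. Whole reads were recovered from 100% of CPM values (tolerance 0.03 reads).

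For the test between day 0 and day 7, log2(CPM + 0.5) was fitted with limma 3.58.1 under R 4.3.3, allowing for a mean-variance trend. Genes whose mean CPM reached 1 entered (12712; 11075 others with reads were left out), with Benjamini-Hochberg adjustment of the p-values. With 42.9 prior and 4 residual degrees of freedom, the trend weighs more in each p-value than the gene's own libraries. Fold changes on this scale understate the change of low genes. The alternatives used edgeR 4.0.16, DESeq2 1.42.0 and voomWithQualityWeights on recovered reads, other pseudocounts, filters and scalings, and left out each library in turn. The fit was tested on made data with known changes before use. Intervals of pooled read ratios cover counting error only, whereas those of log2 fold changes come from limma. The width of the limma intervals rests more on the trend over all genes than on the gene's own libraries.

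Text names all members, their sister genes, the regulators that were tested, the largest rise and fall of each list, and the 5 genes most like Acta2; any further gene was picked with its values in view. The members and lists were chosen with earlier results of these data known. Promoters are from RefSeq, and transcripts and positions from GENCODE M21, both on GRCm38.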

Additional observations from a re-analysis of the deposited data

How the results depend on the processing

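Of the 10 contractile genes, Cnn1, Myl9, Myh11 and Des were higher at day 7 under all 19 alternatives of the day 7 fit, Actg2 under 17, Tpm2 under 13 and Cnn2 under 6, and none was lower under any. Values that turned direction were all close to 0 and did not pass. For Tagln they were 0.0698 with median-of-ratios scaling, 0.0668 with TMM, 0.0691 with edgeR, 0.0719 with DESeq2 and 0.0779 with voomWithQualityWeights, and leaving out 1 library gave -0.15 to 0.0292. For Tpm1 they were 0.0503 with median-of-ratios scaling, 0.0473 with TMM, 0.0449 with edgeR, 0.0476 with DESeq2 and 0.0045 with voomWithQualityWeights, and leaving out 1 library gave -0.24 to 0.0465. Leaving out 1 library gave 4 to 6 members higher, with 4 without day 7 replicate 2 or without day 7 replicate 3, and 1 to 3 members below day 0 at day 4, with 3 without day 0 replicate 3. Median-of-ratios scaling moved the share of higher among all calls from 40.3% to 52.1%, with 2843 genes higher and 2612 lower in place of 1602 and 2369, and without day 0 replicate 3 there were 4696 lower. Leaving out both libraries rich in Gm42418, an alternative added after seeing the data, kept the same 6 members higher, with 4232 genes lower, and library totals without Gm42418 and Plekhh2, also added then, gave 7 with Cnn2.

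With the replicate number as a block, 5 members were higher (Tpm2 did not pass) and 1463 genes were higher. Deviations of day 0 and day 7 libraries with the same number from their stage means correlated at -0.02, -0.18 and -0.44. Deviations from a mean of 3 libraries also carry library composition. The highest value, 0.36, joined day 0 replicate 3 and day 7 replicate 2, both rich in Gm42418. This check therefore cannot settle whether the numbers pair the samples, and day 4 was not checked. At 7741204 reads, the shallowest library gives 1 read a weight of 0.129 CPM, which limits Des and Myocd, and depth does not limit the other members except Myh11 at day 0.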

Other observations

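Of 24 genes of the myofibroblast matrix and the TGF-β response, 8 were higher at day 7, 6 were lower and 10 did not pass, with a median log2 fold change of 0.14, which was 0.25 above that of all genes. The largest rise was Timp1, an inhibitor of matrix metalloproteases (1.99), and the fibrillar collagens Col1a1 (1.35), Col1a2 (1.29) and Col3a1 (0.82) rose with Fap (1.15), a protease that marks activated fibroblasts. Postn (periostin, 0.54), Loxl2 (0.65) and Col5a1 (0.52) were also higher. The largest fall was Thbs1 (thrombospondin-1, -1.79), and the receptor Tgfbr2 (-1.26), Cdh11 (cadherin-11, -1.09), Fn1 (fibronectin, -0.71), Ctgf (-0.69) and Tgfb3 (-0.58) were lower. Collagens are also made by osteoblasts, so this list is not particular to myofibroblasts. At day 4, 16 of the 24 were above day 0 in every library and 5 were below, patterns of 21.4% and 22.0% of all genes.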
